A study of Mus musculus with 9 samples.

Results

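The 2-5A synthetase (Oas) genes were followed in BaF3 cells, a mouse haematopoietic line of pro-B type that grows on interleukin-3, carrying a retrovirally delivered FGFR1OP-RET, BCR-RET or BCR-ABL fusion kinase. There were 5 members, Oas1a, Oas2, Oas3, Oasl1 and Oasl2, of 19938 genes measured with 1 probe set each. They were chosen by name, with the probe set of the highest mean over all arrays kept where a gene had several; since each member had a single probe set with only its own symbol, that mean decided nothing. All 5 were measured and none was removed by a filter.

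Each fusion had 3 Affymetrix MouseGene 1.0 ST arrays of total RNA, 9 in all. The infected cells were sorted on EGFP, and every group carries both a retrovirus and a fusion kinase, so no comparison here is with uninfected or fusion-free cells. BCR-ABL, in its p210 form per the design text, is the kinase of chronic myeloid leukaemia, and the series title ties both RET fusions to chronic myelomonocytic leukaemia. How many infections or clones lie behind a group, and whether its 3 arrays come from separate cultures, is not stated in the sources used, so p-values rest on array-to-array spread that may be technical alone.

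The Oas genes belong to the antiviral response that interferons switch on. The enzymes are activated by double-stranded RNA and join ATP into short 2-5A chains, which act as a second messenger that leads to the cutting of viral and cellular RNA, so that protein synthesis falls. Oas1a, Oas2 and Oas3 encode synthetases built from a rising number of synthetase units. The Oasl genes encode related proteins that also carry ubiquitin-like domains. In the mouse Oasl2 keeps synthetase activity, whereas Oasl1 lacks it and is known for limiting the translation of Irf7 messenger RNA.

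The interferon-stimulated response element is the DNA motif bound by the interferon-activated factor ISGF3 and by IRF proteins. It was searched in RefSeq promoter windows of GRCm38.p6, which run from 250 bases before to 50 bases after a gene's start. Of the 5 members, 4 had such a window (Oas1a, Oas3, Oasl1 and Oasl2). The motif was searched as GAAA, any 2 bases and GAAA again, on both strands, and was present in 3.44% of 32851 windows. Oas1a held 2 overlapping matches, at bases -20 to -11 and -14 to -5 from the start, and Oas3 held 1, at bases -75 to -66. No match lay in the windows of Oasl1 and Oasl2. Oas1g, which shares a probe set with Oas1a, also held 2. The gamma-activated site, TTCNNNGAA, was present in 8.3% of windows and, among the members, in Oas1a alone, at bases -98 to -90. The 90 bases before the start of 4 members and of Oas1g are printed 5′ to 3′ on the gene's strand, with the matches to the interferon-stimulated response element in capitals, to show where Oas1a and Oas3 carry this element, how closely Oas1g follows Oas1a there, and that the stretches of the Oasl genes hold none.
Oas1a, chr5:120907526-120907615, minus strand: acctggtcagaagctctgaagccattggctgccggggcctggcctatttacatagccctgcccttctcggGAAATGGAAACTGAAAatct
Oas1g, chr5:120887614-120887703, minus strand: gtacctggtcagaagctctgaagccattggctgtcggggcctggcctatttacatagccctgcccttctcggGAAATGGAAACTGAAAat
Oas3, chr5:120777660-120777749, minus strand: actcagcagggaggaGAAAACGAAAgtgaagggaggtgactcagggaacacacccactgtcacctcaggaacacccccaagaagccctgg
Oasl1, chr5:114923150-114923239, plus strand: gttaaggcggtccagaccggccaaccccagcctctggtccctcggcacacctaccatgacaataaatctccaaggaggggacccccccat
Oasl2, chr5:114896844-114896933, plus strand: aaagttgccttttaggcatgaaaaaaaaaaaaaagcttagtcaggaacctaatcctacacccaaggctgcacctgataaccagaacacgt
A match to these letters describes the sequence and is not a measured binding site.

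All 5 members had their highest mean in FGFR1OP-RET cells, an intermediate mean in BCR-RET cells and their lowest in BCR-ABL cells. Oas2, Oas3, Oasl1 and Oasl2 rose in FGFR1OP-RET against BCR-ABL cells, Oas2 and Oas3 also rose in FGFR1OP-RET against BCR-RET cells, and Oasl2 rose in BCR-RET against BCR-ABL cells. With the array number also fitted as a block, Oas2 and Oasl1 passed in BCR-RET against BCR-ABL cells as well. Values are the deposited log2 values, means carry the SD of 3 arrays, and adjusted p-values are Benjamini-Hochberg values of the limma fit over all 19938 genes with a threshold of 0.05. The members were proposed with earlier results of these data known, so their passing is not independent evidence. In bulk RNA, more expressing cells and more RNA per cell cannot be told apart. Arrays correlated with r of 0.993 to 0.996 within groups and 0.989 to 0.996 between groups over all probe sets.

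Oas2 (probe set 10533198) read 11.04, 10.74 and 10.5 on the FGFR1OP-RET arrays, 9.63, 9.57 and 9.26 on the BCR-RET arrays and 8.93, 8.79 and 8.73 on the BCR-ABL arrays, in the order of array numbers 1 to 3. The 3 groups did not overlap. Oas2 was 3.85-fold higher in FGFR1OP-RET than in BCR-ABL cells (log2 difference 1.94, SE 0.14, adjusted p = 5.07e-04). Of all 19938 genes, Oas2 had the largest rise in that comparison. Against BCR-RET cells it was 2.42-fold higher in FGFR1OP-RET cells (1.27, SE 0.14, adjusted p = 0.00338). That call ended narrowly when only the 6 arrays of these 2 groups were fitted (adjusted p = 0.0505).

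Oas3 (probe set 10533213), the member with the most synthetase units, read 9.38, 9.34 and 9.22 in FGFR1OP-RET cells, 8.26, 8.28 and 8.19 in BCR-RET cells and 8.04, 8.13 and 7.93 in BCR-ABL cells. The FGFR1OP-RET arrays stood well above all others, and the BCR-RET arrays lay just above the BCR-ABL arrays. The gene was 2.43-fold higher in FGFR1OP-RET than in BCR-ABL cells (1.28, SE 0.07, adjusted p = 1.06e-04) and 2.10-fold higher than in BCR-RET cells (1.07, SE 0.07, adjusted p = 1.89e-04). Both calls of Oas3 held under all 17 alternative settings.

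Oas1a (probe set 10533256), the synthetase with the fewest units, read 9.45, 9.70 and 9.55 in FGFR1OP-RET cells, 9.09, 9.30 and 9.42 in BCR-RET cells and 8.82, 9.13 and 9.21 in BCR-ABL cells. The FGFR1OP-RET arrays lay above the rest, the lowest of them only just over the highest BCR-RET array, whereas BCR-RET and BCR-ABL overlapped. No comparison of Oas1a passed in the fit without a replicate block. FGFR1OP-RET differed from BCR-ABL cells by 0.51 (95% interval 0.25 to 0.77, adjusted p = 0.0975), from BCR-RET cells by 0.30 (0.04 to 0.56, adjusted p = 0.285), and BCR-RET differed from BCR-ABL cells by 0.22 (-0.05 to 0.48, adjusted p = 0.507).

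A second probe set, 10533246, is annotated to both Oas1a and Oas1g and was left out of the members. It read 9.78, 9.90 and 9.89 in FGFR1OP-RET cells, 9.39, 9.48 and 9.44 in BCR-RET cells and 8.90, 9.24 and 9.23 in BCR-ABL cells, with no overlap between groups. In a fit of all 35557 probe sets it rose in FGFR1OP-RET against BCR-ABL cells by 0.73 (SE 0.09, adjusted p = 0.0281) and did not pass in the other 2 comparisons (0.42, adjusted p = 0.126, against BCR-RET cells, and 0.32, adjusted p = 0.263, for BCR-RET against BCR-ABL cells). Signal of Oas1a and Oas1g cannot be told apart there, and cross-hybridisation between the Oas genes was not tested.

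Oasl1 (probe set 10524631) read 9.45, 9.72 and 9.48 in FGFR1OP-RET cells, 9.20, 9.44 and 9.28 in BCR-RET cells and 8.92, 8.80 and 8.78 in BCR-ABL cells. Arrays of both RET fusions lay above every BCR-ABL array, and the lowest FGFR1OP-RET array was nearly level with the highest BCR-RET array. Oasl1 rose 1.65-fold in FGFR1OP-RET against BCR-ABL cells (0.72, SE 0.09, adjusted p = 0.00594). Its difference between the RET fusions was 0.25 (95% interval 0.05 to 0.44, adjusted p = 0.248).

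Oasl2 (probe set 10524621) read 9.31, 9.19 and 9.15 in FGFR1OP-RET cells, 8.83, 9.09 and 8.61 in BCR-RET cells and 8.07, 8.02 and 8.17 in BCR-ABL cells. The gap of Oasl2 lay between the BCR-ABL arrays and both RET fusions, which differed by less. It was 2.19-fold higher in FGFR1OP-RET than in BCR-ABL cells (1.13, SE 0.11, adjusted p = 0.00213), while its difference of FGFR1OP-RET from BCR-RET cells was 0.38 (95% interval 0.13 to 0.62, adjusted p = 0.159).

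**Figure D1:**
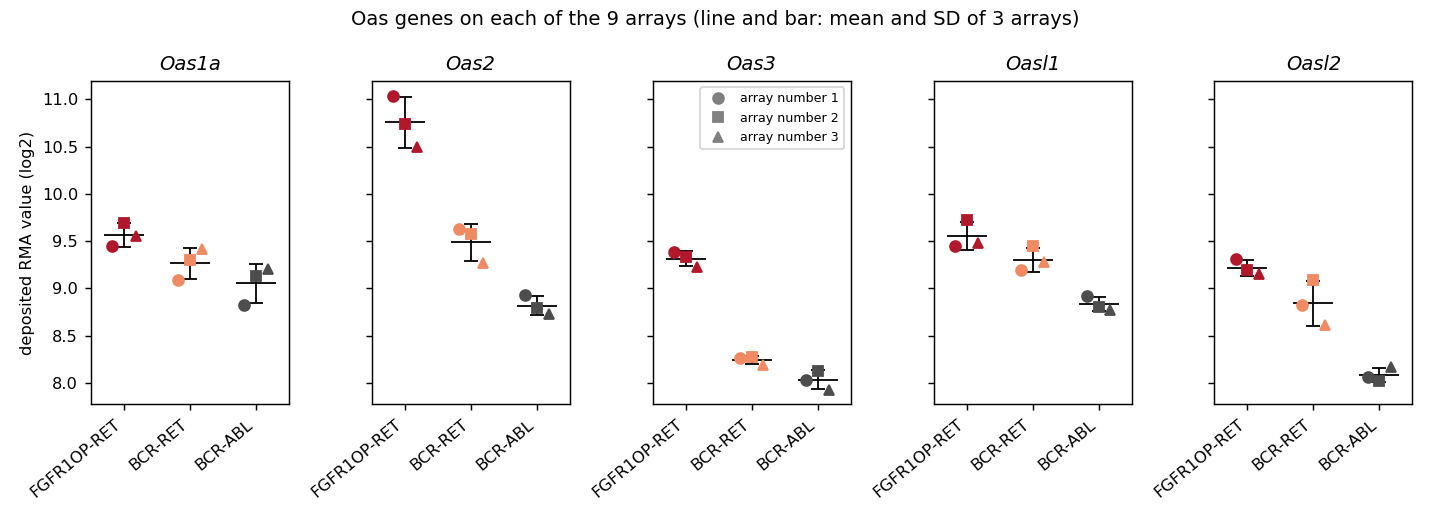
Deposited RMA values (log2) of the 5 Oas genes on each array; marker shape gives the array number, and the line and bar give the mean and SD of 3 arrays per fusion. Oas2 and Oas3 in FGFR1OP-RET cells stand apart from both other groups. The BCR-ABL arrays lie below both RET fusions for Oas2, Oas3, Oasl1 and Oasl2. The RET fusions lie closer together for Oasl1 and Oasl2 than for Oas2 and Oas3.

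The members fell on both sides of the threshold in BCR-RET against BCR-ABL cells, and differences between members were not tested. Oasl2 rose 1.69-fold (0.76, SE 0.11, adjusted p = 0.0161), and the other 4 did not pass: Oas2 differed by 0.67 (SE 0.14, adjusted p = 0.0817), Oasl1 by 0.47 (SE 0.09, adjusted p = 0.0575), Oas1a by 0.22 and Oas3 by 0.21 (SE 0.07, adjusted p = 0.279). Arrays with the same number in these 2 groups deviated together across genes, so the number was also fitted as a block. With the replicate block 3 members passed, Oas2 (adjusted p = 0.00157), Oasl1 (0.0149) and Oasl2 (0.00628), and the share of all genes that passed as higher was 1.19%, against 0.371% without the block. Differences between arrays of the same number were 0.54 to 0.78 for Oas2, 0.28 to 0.64 for Oasl1, 0.44 to 1.07 for Oasl2, 0.14 to 0.26 for Oas3 and 0.17 to 0.27 for Oas1a.

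The call of Oasl2 in BCR-RET against BCR-ABL cells did not hold without each array or under every setting. Leaving out BCR-ABL replicate 1, 2 or 3 gave it an adjusted p of 0.0808, 0.113 or 0.0583, and leaving out BCR-RET replicate 1 gave 0.0545, with log2 differences between 0.72 and 0.80 in these fits. It was 0.058 when all probe sets were tested and 0.0718 when only the 6 arrays were fitted. Oas2 passed without FGFR1OP-RET replicate 1 or 3 (adjusted p = 0.0439 and 0.0477) and Oasl1 without FGFR1OP-RET replicate 2 (0.0425), arrays that enter this comparison through the shared spread alone.

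Counted together, 4 of 5 members passed as higher in FGFR1OP-RET against BCR-ABL cells, where 0.787% of all genes did. In BCR-RET against BCR-ABL cells 1 of 5 passed as higher, against 0.371% of all genes, or 3 of 5 with the replicate block, against 1.19%. In FGFR1OP-RET against BCR-RET cells 2 of 5 passed as higher, against 0.853%. None was lower in any comparison, where 0.231%, 0.216% and 0.476% of all genes passed as lower and 1.02%, 0.587% and 1.33% in either direction. The median member difference was 1.13, 0.47 and 0.38 in these 3 comparisons, and the median over all genes was 0.00, 0.03 and -0.03. All 3 arrays lay above all 3 of the other group for 5 members in FGFR1OP-RET against BCR-ABL cells (6.94% of all genes), for 4 in BCR-RET against BCR-ABL cells (10.7%) and for 5 in FGFR1OP-RET against BCR-RET cells (6.49%). The comparisons share arrays and are therefore not independent of one another. Of 5 macrophage genes, Cd14 and Mpeg1 also rose in FGFR1OP-RET cells against both other groups, while Csf1r, Adgre1 and Cd68 passed in no comparison. The receptor gene Csf2rb rose in both RET fusions against BCR-ABL cells. The part of Cd14, Mpeg1 and Csf2rb in the Oas differences was not tested.

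**Figure D2:**
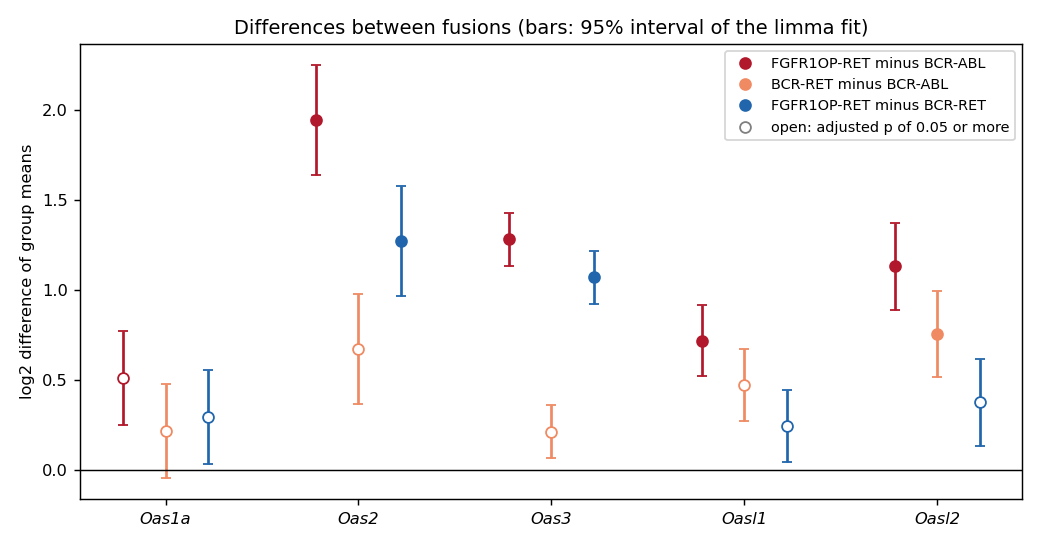
Log2 differences of group means for each Oas gene in the 3 comparisons, with 95% intervals of the limma fit without a replicate block. Filled points had an adjusted p under 0.05. Oas2 and Oas3 are the members with filled points for FGFR1OP-RET minus BCR-RET (1.27 and 1.07), and Oasl2 is the member with a filled point for BCR-RET minus BCR-ABL (0.76).

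The members differed in how far BCR-RET cells went toward the FGFR1OP-RET level. The log2 difference of BCR-RET from BCR-ABL cells amounted to 65.9% of that of FGFR1OP-RET from BCR-ABL cells for Oasl1 and to 66.8% for Oasl2. It amounted to 34.5% for Oas2, 16.5% for Oas3 and 42% for Oas1a. These shares use the same BCR-ABL arrays in both differences and are a description without a test.

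Within groups the members also varied by array number. Oas2 and Oas3 were lowest on array number 3 in each of the 3 groups, and Oas1a was lowest on array number 1 in each. Deviations from the group means correlated with r of 0.691 between Oas2 and Oas3 and -0.637 between Oas1a and Oas2 over the 9 arrays, which share 3 group means. Oasl1 and Oasl2 had no array number that was lowest in every group. The largest single deviations were those of Oas2 in FGFR1OP-RET cells, with an SD of 0.27, and of Oasl2 in BCR-RET cells, with an SD of 0.24.

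**Figure D3:**
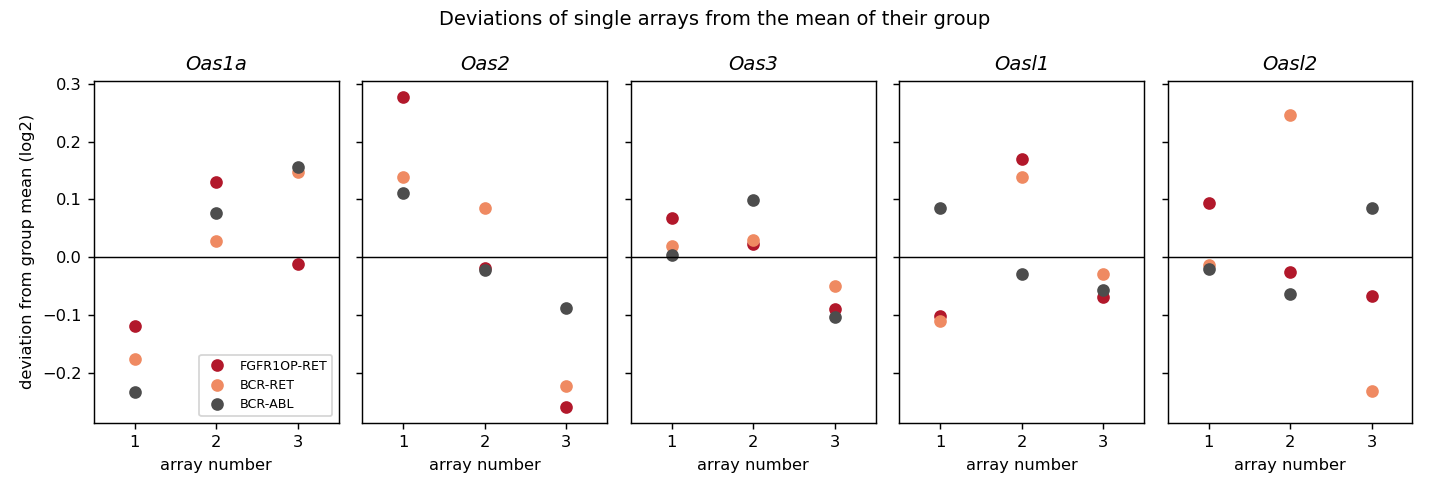
Deviation of each array from the mean of its group (log2) by array number, for the 5 Oas genes; colours give the fusion. Oas2 and Oas3 lie below 0 on array number 3 in all 3 groups, and Oas1a lies below 0 on array number 1 in all 3.

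All members lie on chromosome 5 in the GRCm38.p6 gene table, used here for names and neighbours. Oas2, Oas3 and Oas1a stand in a run of 10 Oas genes, from Oas2 to Oas1d, with 1 other gene entry inside it. Oasl2 and Oasl1 stand apart from that run, with 1 other entry between them and 138 between Oasl1 and Oas2. Of the 10 genes in the run, 9 had a probe set of their own. Differences of FGFR1OP-RET from BCR-ABL cells were unequal along it. After Oas2 (1.94) and Oas3 (1.28) came Oas1e (-0.01), Oas1c (0.51), Oas1b (0.66), Oas1f (0.11), Oas1h (0.15), Oas1a (0.51) and Oas1d (-0.13). Oas1e, the neighbour of Oas3 on its other side from Oas2, had a difference near 0. Group means of Oas1e, Oas1h and Oas1d were only 5.55 to 6.20, below the array medians of 8.01 to 8.04. Those of Oas1f (7.02 to 7.18) and Oas1c (7.41 to 7.92) also lay below these medians. No detection calls were used, so the small differences of Oas1e, Oas1h, Oas1d and Oas1f do not show that these genes were expressed and unchanged.

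**Figure D4:**
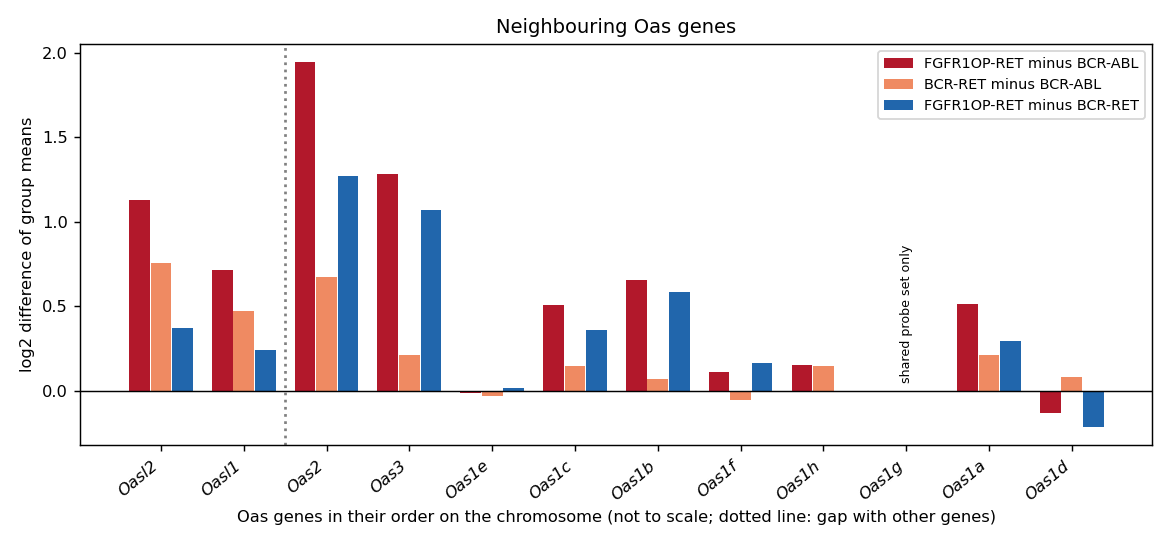
Log2 differences of group means for the Oas genes in their order on the chromosome, not to scale; the dotted line marks the gap between the Oasl genes and the run from Oas2 to Oas1d, and Oas1g has only a probe set shared with Oas1a. The tallest bars are those of Oas2 and Oas3. Oas1e, beside Oas3, lies near 0 and had low values, with group means of 6.17 to 6.20.

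Of the rest of the 2-5A pathway, 1 gene passed. Over all genes 1.02% passed in FGFR1OP-RET against BCR-ABL, 0.587% in BCR-RET against BCR-ABL and 1.33% in FGFR1OP-RET against BCR-RET cells. The 8 listed genes analysed here were 6 other Oas1 genes, Abce1 and Pde12, each with a probe set of its own. Oas1b, the gene of inherited flavivirus resistance in mice, was the member of that list that passed. It read 8.85, 8.52 and 8.50 in FGFR1OP-RET cells, 8.01, 8.11 and 7.99 in BCR-RET cells and 8.01, 7.99 and 7.90 in BCR-ABL cells. It rose in FGFR1OP-RET cells by 0.66 against BCR-ABL (SE 0.09, adjusted p = 0.00954) and by 0.58 against BCR-RET (adjusted p = 0.0175).

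The Oas1b calls did not hold without each array. The first had an adjusted p of 0.0561 and 0.0565 without BCR-ABL replicates 2 and 3, and the second 0.0516, 0.0586 and 0.0784 without BCR-RET replicates 1, 2 and 3. None of the 8 passed in limma in BCR-RET against BCR-ABL cells, where 0.587% of all genes did. None of the 8 had an unadjusted p under 0.05 there. Abce1, a ribosome recycling factor, and Pde12, which degrades 2-5A, had differences between -0.06 and 0.03 in the 3 comparisons. The list median was 0.05, 0.02 and 0.03 for FGFR1OP-RET against BCR-ABL, BCR-RET against BCR-ABL and FGFR1OP-RET against BCR-RET cells.

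Genes of the interferons and their receptors lie upstream of the Oas genes. None of 11 measured genes of that list passed in limma in any comparison, where 1.02%, 0.587% and 1.33% of all genes did. With shares this small, 0 of 11 is no result about these genes. In the same order of comparisons, 1, 1 and 2 of the 11 had an unadjusted p under 0.05. Ifnb1, which encodes interferon beta, had means of 6.58 ± 0.15 in FGFR1OP-RET, 6.80 ± 0.13 in BCR-RET and 6.72 ± 0.03 in BCR-ABL cells (SD, n = 3 each). No detection calls were used, so these values do not show whether Ifnb1 was expressed.

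Among 9 measured signal transducers and regulators of the interferon response, 3 rose in FGFR1OP-RET against BCR-ABL cells, Irf7, Irf9 and Usp18. Of all genes 0.787% passed as higher there. Irf9, the DNA-binding subunit of ISGF3, read 10.27, 10.38 and 10.39 in FGFR1OP-RET cells, 9.68, 9.82 and 9.83 in BCR-RET cells and 9.68, 9.86 and 9.89 in BCR-ABL cells. Only the FGFR1OP-RET arrays of Irf9 stood apart. It rose by 0.54 against BCR-ABL (SE 0.07, adjusted p = 0.00784) and by 0.57 against BCR-RET cells (adjusted p = 0.00604), and BCR-RET differed from BCR-ABL cells by -0.03 (95% interval -0.19 to 0.13).

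Irf7, the transcription factor whose messenger RNA Oasl1 is known to act on in mice, had means of 9.16 ± 0.11 in FGFR1OP-RET, 8.45 ± 0.24 in BCR-RET and 7.91 ± 0.15 in BCR-ABL cells. It rose in FGFR1OP-RET against BCR-ABL cells (1.25, adjusted p = 0.00216) and against BCR-RET cells (0.71, adjusted p = 0.026). The second call ended without any 1 of 5 arrays (BCR-ABL replicate 3, BCR-RET replicates 1 and 3, FGFR1OP-RET replicates 1 and 2; adjusted p = 0.0558 to 0.108). Its difference of BCR-RET from BCR-ABL cells was 0.54 (adjusted p = 0.119; 0.004 with the replicate block).

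Usp18, which removes ISG15 from proteins and dampens interferon receptor signalling, rose in FGFR1OP-RET against BCR-ABL cells by 1.18 (adjusted p = 0.00697; 0.0506 without BCR-ABL replicate 2). BCR-RET differed from BCR-ABL cells by 0.67 in Usp18 (adjusted p = 0.124; 0.0265 with the replicate block). Stat2, another subunit of ISGF3, did not pass (0.37 for FGFR1OP-RET against BCR-ABL cells, adjusted p = 0.124; 0.012 without FGFR1OP-RET replicate 3). Socs1, a feedback inhibitor of JAK kinases, fell by 0.37 in FGFR1OP-RET against BCR-RET cells (adjusted p = 0.0494), a call that ended without any 1 of the 9 arrays. BCR-RET was the group that stood apart in Socs1, since FGFR1OP-RET differed from BCR-ABL cells by -0.02 (adjusted p = 0.957) and BCR-RET from BCR-ABL cells by 0.35 (adjusted p = 0.095). In BCR-RET against BCR-ABL cells 0 of the 9 passed, where 0.587% of all genes did, and 4 had an unadjusted p under 0.05.

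Double-stranded RNA activates the Oas enzymes and also several sensors. All 8 genes listed as double-stranded RNA sensors and responders were measured. In FGFR1OP-RET against BCR-ABL cells 3 rose, the cytosolic sensors Ddx58 (0.95, SE 0.09, adjusted p = 0.00234) and Ifih1 (0.56, adjusted p = 0.00766; 0.0528 without BCR-ABL replicate 2) and the Z-form nucleic acid sensor Zbp1 (0.95, adjusted p = 0.00506). In FGFR1OP-RET against BCR-RET cells 2 rose, Ddx58 (0.72, adjusted p = 0.00799) and the RNA-editing enzyme gene Adar (0.45, adjusted p = 0.046), the Adar call ending without any 1 of 8 arrays, all but BCR-RET replicate 2. In BCR-RET against BCR-ABL cells 0 of 8 passed and 3 had an unadjusted p under 0.05, with Zbp1 at 0.59 (adjusted p = 0.0654; 0.00833 with the replicate block). The list median was 0.33, 0.09 and 0.29 in the order FGFR1OP-RET against BCR-ABL, BCR-RET against BCR-ABL and FGFR1OP-RET against BCR-RET cells. Of all genes 0.787%, 0.371% and 0.853% passed as higher in that order.

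**Figure D5:**
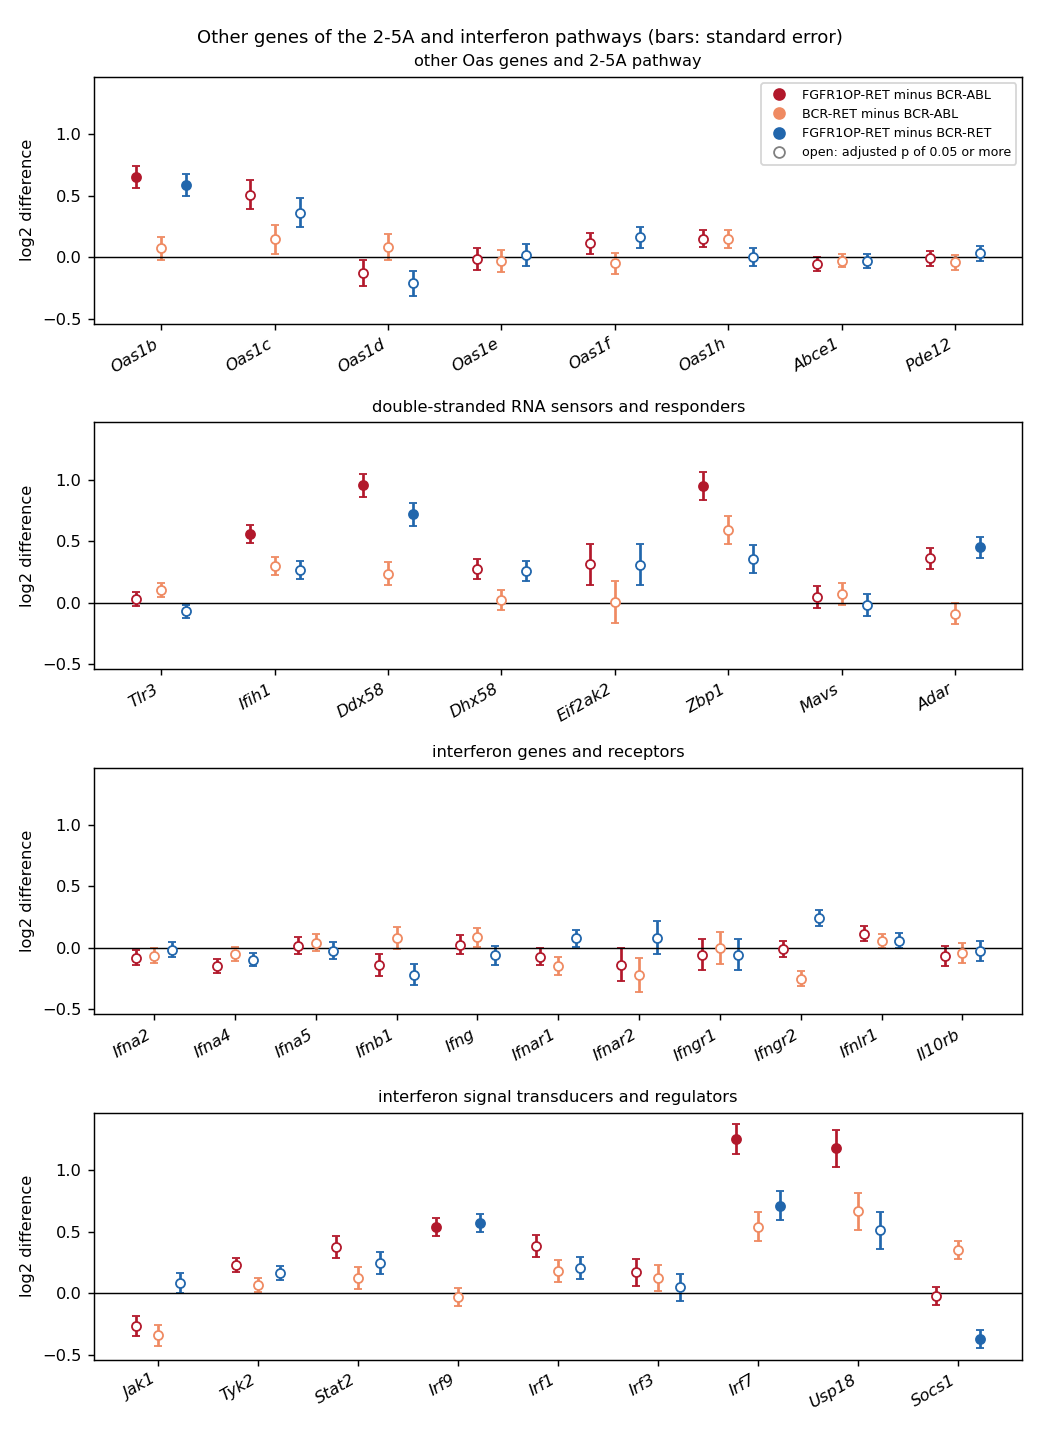
Log2 differences with standard errors for the measured genes of 4 lists around the Oas genes in the 3 comparisons; filled points had an adjusted p under 0.05. Interferon and receptor genes have open points throughout, while Irf7, Usp18, Ddx58 and Zbp1 reach 0.95 to 1.25 in FGFR1OP-RET minus BCR-ABL.

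The genes whose 9-array profile was most like each member were taken from 2942 genes with a range of at least 0.5 log2, by Pearson r. The 9 points share 3 group means, so r reflects the order of the groups as well as single arrays, and it is given as a description. Nearest to Oas2 were the interferon-induced gene Ifi27 (r = 0.984), the metalloprotease gene Adam8 (0.978) and the peptide transporter gene Tap1 (0.975). Nearest to Oas3 were Ern1, a sensor of the unfolded protein response (0.987), the proton pump subunit gene Tcirg1 (0.975) and the transcription factor gene Arid3a (0.969). Ern1 had means of 11.64 in FGFR1OP-RET, 10.97 in BCR-RET and 10.92 in BCR-ABL cells, so that FGFR1OP-RET cells stood apart from both other groups, as for Oas3.

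Nearest to Oasl2 were Usp18 and Zbp1 (0.983 each) and Tapbp, which encodes the peptide-loading protein tapasin (0.975). Nearest to Oasl1 were Trim34a, a tripartite motif gene (0.973), Tapbp (0.957) and Ifih1 (0.952). Nearest to Oas1a were the guanine deaminase gene Gda (0.97), the protease inhibitor gene Slpi (0.967) and the integrin gene Itgal (0.938). Among the members themselves the highest r was that of Oas2 and Oas3 (0.971), followed by Oasl1 and Oasl2 (0.938), and the lowest was that of Oas1a and Oas2 (0.749).

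The labelled cell type and other cells were read from marker genes. Ptprc, Il3ra and Csf2rb, leukocyte and interleukin-3 receptor genes, had values of 10.24 to 12.89 on all arrays. Csf2rb rose by 0.69 in FGFR1OP-RET (adjusted p = 0.00649) and by 0.72 in BCR-RET cells (adjusted p = 0.00819), both against BCR-ABL cells, and kept both calls without any 1 array. Ptprc rose by 0.36 in FGFR1OP-RET against BCR-RET cells (adjusted p = 0.0182), a call that ended without BCR-RET replicate 1 or 3 or any 1 FGFR1OP-RET array (adjusted p = 0.0518 to 0.0773). Of the 7 measured B-lineage genes, Cd79b had values of 9.47 to 9.997, Ighm 7.91 to 8.14, Igll1 7.57 to 7.95 and Vpreb1 7.41 to 7.68. The other 3, Cd79a, Ebf1 and Pax5, lay between 5.94 and 7.65. Without detection calls these values do not show which of them were expressed. None of the 7 passed in limma in any comparison, where at most 1.33% of all genes did, or had an unadjusted p under 0.05. Of 5 macrophage genes, Cd14 (1.06, adjusted p = 0.0146) and Mpeg1 (1.01, adjusted p = 0.0106) rose in FGFR1OP-RET against BCR-ABL cells. Both also rose against BCR-RET cells, Cd14 by 1.21 (adjusted p = 0.00775) and Mpeg1 by 1.16 (adjusted p = 0.00591), and kept these calls without any 1 array. Csf1r, the growth factor receptor of macrophages, had means of 7.09, 7.18 and 7.07 in FGFR1OP-RET, BCR-RET and BCR-ABL cells. In that order Cd68 had means of 10.35, 10.08 and 10.22, and Adgre1 of 9.56, 9.72 and 9.45. Csf1r, Cd68 and Adgre1 did not pass in limma in any comparison. Cd68 had an unadjusted limma p of 0.00793 in FGFR1OP-RET against BCR-RET cells (0.27, 95% interval 0.09 to 0.45, adjusted p = 0.177). Against BCR-ABL cells the Cd14 call ended without BCR-ABL replicate 1, 2 or 3 (adjusted p = 0.0509 to 0.0971) and that of Mpeg1 without BCR-ABL replicate 1 or 3 (0.0548 and 0.0597).

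The summed level of the 5 macrophage genes, as log2 of the sum, was 11.32 to 11.66 in FGFR1OP-RET, 11.17 to 11.30 in BCR-RET and 11.17 to 11.26 in BCR-ABL cells. No deposited value was 0, the lowest being 2.66. The part of these genes in the Oas differences was not tested. None of 4 plasmacytoid dendritic cell, 4 T cell and 4 fibroblast genes passed in limma in any comparison, where at most 1.33% of all genes did. In each list 1 or none had an unadjusted p under 0.05.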

How the data were processed

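The deposited values are log2 signals of probe sets on each array, from gene-level RMA run in Affymetrix Expression Console by the authors, per the labels; its version, annotation and build: not given in the sources used here. RMA makes array distributions alike, so a shift of most transcripts would not be seen. Values ran from 2.66 to 14.92 and array medians from 8.01 to 8.04; of all genes 30.1% had 1 value on at least 3 arrays, but each member had 9 distinct values. The number of arrays limits the precision.

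Of 35557 probe sets, 21789 had 1 symbol in GEO's platform annotation, 1621 several and 12147 none. Symbols were checked by Entrez identifier against a GRCm38.p6 gene table (0 changed, 91 not found). Among probe sets with 1 symbol, that with the highest mean was kept per gene, leaving 19938 genes. Groups were fitted with limma 3.58.1 in R 4.3.3 (lmFit, eBayes), all 9 arrays sharing 1 spread. The procedure was tested on simulated data with planted changes of 1 log2 and no array-number effect. That test does not cover smaller changes or shared deviations of same-numbered arrays. Members and lists were chosen with earlier results of these data known. Named genes are the members, list genes that passed, Ifnb1, Stat2, Irf9 and Irf7, and the 3 annotated genes most like each member; other genes named here are list or marker genes named after their values were seen, and some listed items are not reported here.

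Deviations of same-numbered arrays correlated with r of 0.617, 0.155 and 0.367 between BCR-RET and BCR-ABL, all above the limit of 0.1 for pairs. They were 0.382, -0.128 and 0.4 between FGFR1OP-RET and BCR-ABL, and 0.498, -0.152 and 0.41 between FGFR1OP-RET and BCR-RET, which were therefore not treated as pairs. Alternatives varied scaling, filter, probe sets, moderation, arrays and block.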

Additional observations from a re-analysis of the deposited data

How the results depend on the processing

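All 15 member differences stayed above 0 under the 17 settings tried; of 255 calls compared, 239 were the same, 7 ended and 9 were gained. Against 4, 1 and 2 members in FGFR1OP-RET against BCR-ABL, BCR-RET against BCR-ABL and FGFR1OP-RET against BCR-RET cells, leaving out single arrays gave 4 to 4, 0 to 2 and 2 to 2. In BCR-RET against BCR-ABL cells 0 members passed with all probe sets or only the 6 arrays, 2 after subtracting the array 75th percentile or with a filter on dim genes, and 3 with the replicate block; in FGFR1OP-RET against BCR-RET cells 1 passed with only the 6 arrays. The array number as a replicate block also passed Oas1a in FGFR1OP-RET against BCR-ABL cells (adjusted p = 0.00327) and against BCR-RET cells (0.0319). Those comparisons missed the limit for pairs through array number 2 alone (r of -0.128 and -0.152), so whether their arrays pair is not settled.

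Over all genes 203, 117 and 265 passed, in the same order of comparisons. The counts were 121, 73 and 101 with all probe sets, 94, 56 and 34 with only the 6 arrays, 576, 362 and 1135 with the replicate block, and 70 to 185, 28 to 114 and 86 to 194 without single arrays. Of 36 list genes 7, 0 and 6 passed. The counts were 11, 3 and 11 with the replicate block, 4 to 8, 0 to 1 and 2 to 5 without single arrays, 1 in BCR-RET against BCR-ABL cells after subtracting the 75th percentile, and 2 and 1 in FGFR1OP-RET against BCR-RET cells with all probe sets and only the 6 arrays. The causes were not tested. Scaling moved differences by at most 0.03. No result reversed.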
